A study of Homo sapiens with 2 samples.

Results

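The genes described here encode the proteins that carry metabolites across the inner mitochondrial membrane, bring proteins into mitochondria and shape the organelle by fusion and fission. They were chosen by symbol from the platform annotation, as genes named SLC25A, TIMM or TOMM with a number, together with MFN1, MFN2, OPA1, DNM1L and FIS1. The naming rule itself uses no measured value, though earlier results of these data were known when it was set. The rule found 55 genes of the 14232 that a probe set with a single symbol names. Expression was compared between the side population (SP) and the non-side population (NSP) of J82, a cell line from a human bladder cancer. The cells were grown in DMEM with serum, were given no treatment that the labels name, and were sorted with the DNA dye Hoechst, which SP cells keep little of because they pump it out. Total RNA of each population was hybridised to 1 whole-transcript exon array, so the groups are SP with 1 array and NSP with 1 array, both from the same line. The labels name no genetic change or clone and do not say whether more than a single sort was pooled.

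With 1 array per population, neither an error nor a p-value can be attached to a difference, and each value describes these 2 arrays. Fewer cells with a transcript and less transcript per cell cannot be told apart in sorted bulk RNA. Signals are on the log2 scale, a difference is the SP value minus the NSP value, and a fold is 2 to the power of its size. Across all 22011 probe sets signals had a median of 7.43 in SP and 7.44 in NSP, with a Pearson correlation of 0.986 between the arrays over probe sets. The median of all values, 7.44, is used as a floor, because the table holds no detection call. Of 13 measured epithelial and urothelial markers, 4 reached the floor (KRT7, KRT8, KRT18 and KRT19), and EPCAM, CDH1, GATA3 and the uroplakin genes lay under it. All 5 mesenchymal markers reached the floor. Among markers of other cells 1 of 3 immune genes (CD14) reached the floor, and none of 4 endothelial or 2 erythroid and platelet genes did.

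Nearly all mitochondrial proteins are made in the cytosol. The TOM complex of the outer membrane admits them, the TIM23 complex passes those with a presequence into the matrix, and small chaperones of the intermembrane space hand carrier proteins to the TIM22 complex, which inserts them in the inner membrane. SLC25 carriers then exchange nucleotides, phosphate, carboxylates, amino acids, cofactors and metals between matrix and cytosol. Mitofusins and OPA1 fuse the outer and inner membranes, and the GTPase DNM1L, with receptors and adaptors such as FIS1, divides the organelle.

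Genes of this machinery had a lower value in SP more often than named genes in general on these arrays, by small differences throughout. Over all 55 genes 35 had a lower value in SP and 20 a higher one, which makes 63.6% lower, against 49.5% of all named genes. Their median difference was -0.09, against 0.00 for all named genes. A difference of 0.322 in size (25% higher or 20% lower on the linear scale), called the call size here, was reached downward in SP by 7 of the 55 and upward by 3, or 12.7% and 5.45%, against a background of 8.05% and 7.65% of all named genes. The call size was set this low because differences of these genes in earlier results of these data were small, so counts at it are descriptive only. Of the 55, 42 reached the floor on at least 1 array and 13 did not, and 41 reached it on both. Among the 42, 30 had a lower value in SP (71.4%), against 59.6% of the 7549 genes reaching the floor, and 12 a higher one (28.6%), against 40.1%. At the call size 7 of the 42 were lower (16.7%), against 10.7% of all such genes, and 2 were higher (4.76%), against 8.57%. These shares differ from the background by a few genes. Among the 25 SLC25A genes alone 2 were lower and 2 higher (8% each). At the call size the carriers therefore showed no larger share of lower genes than all genes did (10.7%). No member reached 1.5-fold either way, whereas among all genes reaching the floor 1.43% were lower and 3.1% higher by that margin. At a smaller difference of 0.20, 17 of the 42 were lower and 5 higher, against 24.7% and 15% of all genes.

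The 42 genes had a median difference of -0.13, against -0.05 for all genes reaching the floor. When the trend of the difference on signal level was removed, the medians were -0.05 for the members and 0.00 for all genes. Of the members 59.5% then had a lower value in SP, against 49.3% of all genes. At the call size 5 members were lower and 3 higher, against 6.85% and 10.8% of all genes. After centring each array on its median, and also after quantile normalisation, 6 were lower and 3 higher. The shares of all genes were 9.64% and 8.99% after centring, and 8.46% and 9.81% after quantile normalisation. In the main scaling the 7 lower genes were TIMM21, SLC25A28, FIS1, SLC25A16, TIMM10, TIMM50 and TOMM22, and the 2 higher ones were SLC25A26 and SLC25A25. SLC25A41, the third gene higher by the call size, lay under the floor in both populations. Just inside the call size were TOMM22 (1.258-fold lower), TIMM50 (1.267-fold lower) and SLC25A25 (1.280-fold higher). Just outside it were TIMM8B (1.248-fold lower), DNM1L (1.246-fold higher), SLC25A40 (1.243-fold lower) and SLC25A23 (1.225-fold lower).

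**Figure D1:**
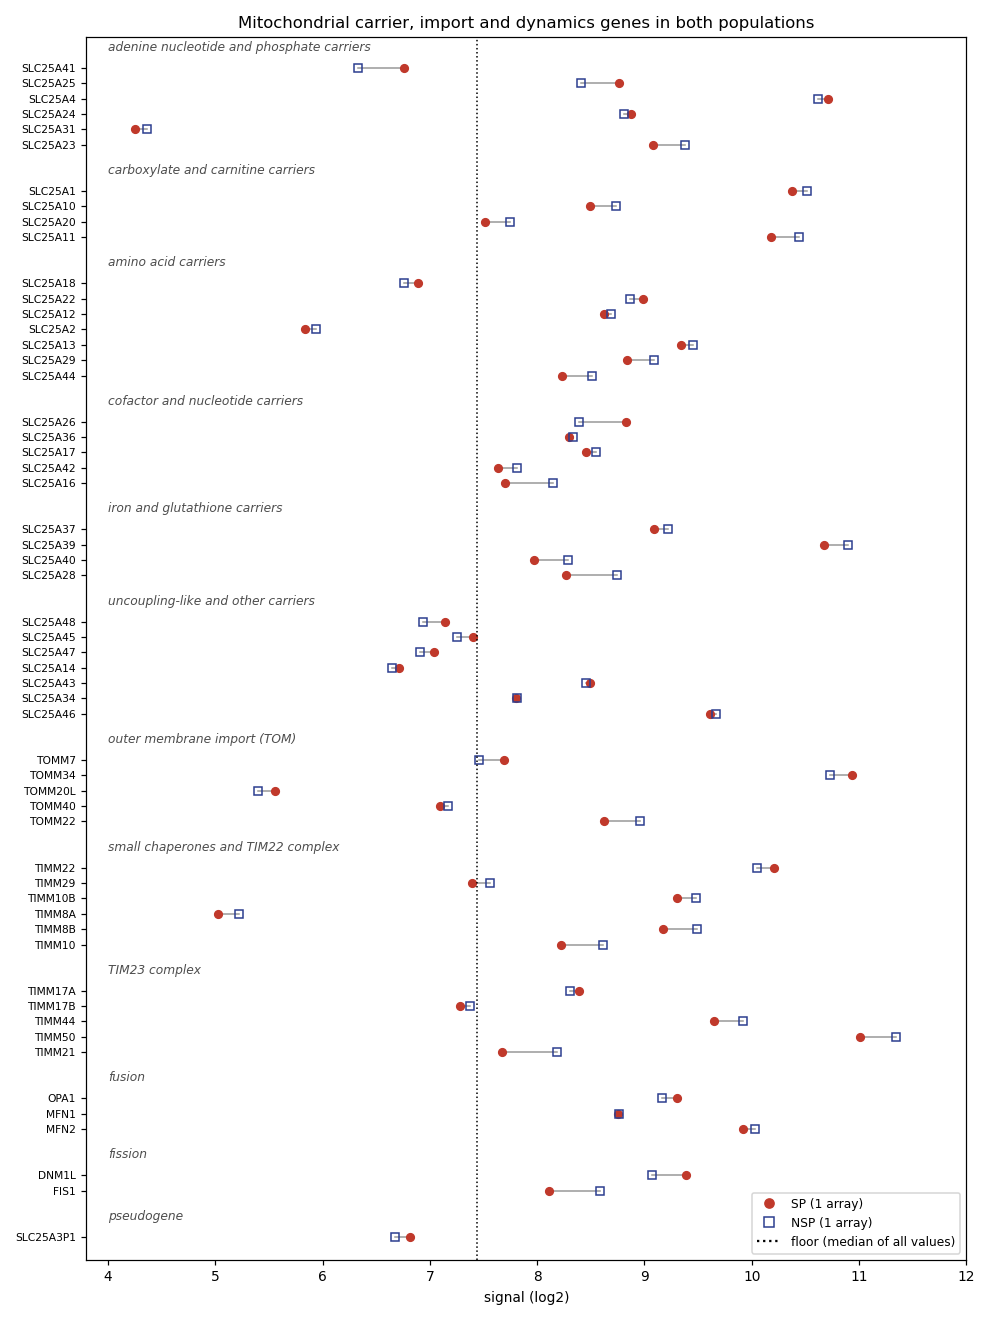
Signal (log2, horizontal axis) of each of the 55 genes on the SP array (filled circle) and the NSP array (open square), grouped by role, with the floor of 7.44 as a dotted line. Differences are short beside the range of levels, 42 genes reach the floor, and the longest bar at or above it belongs to TIMM21 (7.67 in SP and 8.19 in NSP).

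Promoters of the members were searched for the motifs of factors known to control nuclear genes for mitochondrial proteins, in RefSeq windows (GRCh38.p14) of 250 bases before to 50 bases after the first listed start. A promoter was found for 49 of the 55 genes. The NRF1 motif (GCGCA, any base, then GCGC) was found on either strand in 7 of them (14.3%), against 9.05% of the promoters of named genes and 6.28% of all promoters in the table. CCGGAAGT, a motif of ETS factors such as GABPA, was found in 8 (16.3%), against 6.42% and 4.44%. CACGTG, the E-box bound by MYC and other factors, was found in 6 (12.2%), against 8.99% and 7.43%. Matches of different motifs shared no bases in any member promoter, and these shares describe sequence only. Among members reaching the floor, the 5 with the NRF1 motif had a median difference of 0.14 and the 34 without it -0.12. For the ETS motif the medians were -0.12 over 8 genes and -0.11 over 31, and for the E-box -0.08 over 4 and -0.14 over 35.

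The 250 bases upstream of the start are printed for 6 named members that hold a motif there, since FIS1 and TIMM10 passed the call size and OPA1, SLC25A11, SLC25A46 and TOMM7 stand at an end of their role. Capitals mark the motif, which is ETS in FIS1 and TIMM10, NRF1 in OPA1, SLC25A11 and TOMM7, and an E-box followed by 2 ETS matches in SLC25A46. The regions are, in GRCh38.p14, chr7:101245082-101245331, minus strand for FIS1, chr11:57530755-57531004, minus strand for TIMM10, chr3:193592958-193593207, plus strand for OPA1, chr17:4940047-4940296, minus strand for SLC25A11, chr5:110738757-110739006, plus strand for SLC25A46 and chr7:22822850-22823099, minus strand for TOMM7. Each is given 5′ to 3′ on the strand of its gene.
FIS1: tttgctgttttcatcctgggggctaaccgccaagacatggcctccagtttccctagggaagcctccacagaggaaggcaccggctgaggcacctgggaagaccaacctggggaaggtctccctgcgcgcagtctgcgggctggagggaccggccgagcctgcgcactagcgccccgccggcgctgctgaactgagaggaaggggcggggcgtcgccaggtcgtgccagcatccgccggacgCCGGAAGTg
TIMM10: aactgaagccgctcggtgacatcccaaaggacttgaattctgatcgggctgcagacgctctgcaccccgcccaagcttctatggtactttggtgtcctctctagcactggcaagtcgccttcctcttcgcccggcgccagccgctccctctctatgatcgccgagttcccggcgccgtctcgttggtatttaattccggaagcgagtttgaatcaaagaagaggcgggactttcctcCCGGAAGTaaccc
OPA1: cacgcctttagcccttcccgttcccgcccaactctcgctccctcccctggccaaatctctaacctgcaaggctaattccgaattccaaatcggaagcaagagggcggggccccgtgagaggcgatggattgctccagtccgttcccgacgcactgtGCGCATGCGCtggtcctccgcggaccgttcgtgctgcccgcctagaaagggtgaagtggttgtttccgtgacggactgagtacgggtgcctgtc
SLC25A11: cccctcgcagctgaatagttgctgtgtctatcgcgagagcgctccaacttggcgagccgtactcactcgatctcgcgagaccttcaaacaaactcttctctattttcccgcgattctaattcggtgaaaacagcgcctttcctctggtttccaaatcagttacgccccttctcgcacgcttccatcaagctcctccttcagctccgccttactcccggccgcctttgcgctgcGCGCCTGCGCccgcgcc
SLC25A46: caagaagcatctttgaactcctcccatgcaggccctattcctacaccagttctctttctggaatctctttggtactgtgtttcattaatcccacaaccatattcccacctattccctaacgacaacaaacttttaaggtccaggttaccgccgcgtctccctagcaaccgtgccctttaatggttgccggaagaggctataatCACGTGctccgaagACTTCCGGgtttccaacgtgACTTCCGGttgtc
TOMM7: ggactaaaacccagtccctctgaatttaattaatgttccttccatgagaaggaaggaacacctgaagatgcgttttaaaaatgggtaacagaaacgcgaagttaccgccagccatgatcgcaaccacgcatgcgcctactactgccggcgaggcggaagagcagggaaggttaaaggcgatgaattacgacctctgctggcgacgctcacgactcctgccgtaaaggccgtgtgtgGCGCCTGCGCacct

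The ETS motif began 9 bases before the start in FIS1 and 13 in TIMM10, both lower in SP, and 33 and 13 bases before it in SLC25A46, which was near 0. The NRF1 motif began 14 bases before the start in TOMM7, 17 in SLC25A11 and 94 in OPA1. Of these, TOMM7 and OPA1 were higher in SP and SLC25A11 lower, so the same motif stood beside differences of either sign.

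The TIM23 complex had the lowest median of the roles among genes reaching the floor. Without the floor it and the iron and glutathione carriers both had -0.27. TIMM21, a TIM23 subunit that contacts the TOM complex, had a signal of 7.67 in SP and 8.19 in NSP, a difference of -0.52 (1.43-fold lower). This was the largest difference of any member. TIMM50, the receptor that takes presequences from the outer membrane, had 11.00 in SP and 11.35 in NSP (-0.34, 1.27-fold lower). TIMM44, which tethers the import motor to the channel, had 9.65 in SP and 9.92 in NSP (-0.27). TIMM21, TIMM50 and TIMM44 were thus lower in SP, as were 59.6% of all genes reaching the floor, and TIMM44 fell short of the call size. The channel-forming TIMM17A differed from them, with 8.39 in SP and 8.31 in NSP (0.08). Its paralogue TIMM17B stayed under the floor, at 7.28 in SP and 7.38 in NSP. Over the 4 TIM23 genes reaching the floor the median difference was -0.30, with 2 lower by the call size, against 10.7% of all genes, and none higher. Without the trend on signal TIMM50 fell short of it (-0.26), which left 1, against 6.85% of all genes.

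Genes of the small chaperones and the TIM22 complex also differed in sign. TIMM10, whose printed promoter also holds an ETS motif, forms with TIMM9 the hexamer that escorts carrier precursors. Its signal was 8.23 in SP and 8.62 in NSP (-0.39, 1.31-fold lower). TIMM8B, of the chaperone family that pairs with TIMM13, had 9.17 in SP and 9.49 in NSP (-0.32), just short of the call size. TIMM10B, a small protein attached to TIM22, had 9.30 in SP and 9.48 in NSP (-0.18). All the chaperones measured were lower in SP, as were 59.6% of all genes reaching the floor. Of the chaperones, TIMM8A, at 5.02 in SP and 5.22 in NSP, lay far under the floor. The insertase TIMM22 itself went the other way, with 10.20 in SP and 10.05 in NSP (0.15). TIMM29, another TIM22 subunit, had 7.40 in SP and 7.56 in NSP, so only its NSP value reached the floor. The median of the 5 genes reaching the floor was -0.18.

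In the outer membrane, the receptor and the accessory genes differed in sign. TOMM22, the central receptor of the complex, had 8.62 in SP and 8.95 in NSP (-0.33, 1.26-fold lower). TOMM7, a small subunit that tunes the stability of the complex and retains the kinase PINK1 there, had 7.69 in SP and 7.46 in NSP (0.23). TOMM34, a cytosolic co-chaperone of import rather than a part of the pore, had 10.93 in SP and 10.73 in NSP (0.21). The pore gene TOMM40 was under the floor, at 7.10 in SP and 7.17 in NSP, as was TOMM20L, at 5.56 in SP and 5.40 in NSP. The median of the 3 genes reaching the floor, 0.21, therefore rests on TOMM7 and TOMM34, and it was 0.07 when the floor was set at the 25th percentile of all values. TOMM20, TOMM70, TOMM5, TOMM6, TIMM9, TIMM13 and TIMM23 had no single-symbol probe set and were not analysed here. Over TIMM and TOMM genes together, 4 of the 12 reaching the floor were lower by the call size and none was higher (10.7% and 8.57% of all genes). The count was 3 after centring or quantile normalisation, which left out TOMM22, and 2 without the trend on signal, when TIMM50 also fell short. The shares of all genes lower by that size were 9.64%, 8.46% and 6.85% in these scalings, in that order.

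The fission genes differed in sign. FIS1, an outer membrane adaptor of fission with an ETS motif just before its start, had 8.11 in SP and 8.59 in NSP (-0.48, 1.39-fold lower). DNM1L, the dynamin-related GTPase that constricts the organelle, had 9.39 in SP and 9.07 in NSP (0.32), just short of the call size, which it passed after centring (0.33), quantile normalisation (0.36) or removal of the trend on signal (0.40). Thus the adaptor was lower and the GTPase higher in SP, and both kept their sign after centring, quantile normalisation or removal of the trend on signal. Fusion genes differed less. OPA1, which fuses the inner membrane, had 9.31 in SP and 9.17 in NSP (0.14), and MFN2, a mitofusin of the outer membrane, had 9.92 in SP and 10.03 in NSP (-0.11). For MFN1, the other mitofusin, the values were 8.75 in SP and 8.76 in NSP. Its difference of -0.01 turned to between 0.01 and 0.06 after centring, quantile normalisation or removal of the trend on signal, so no direction is given.

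**Figure D2:**
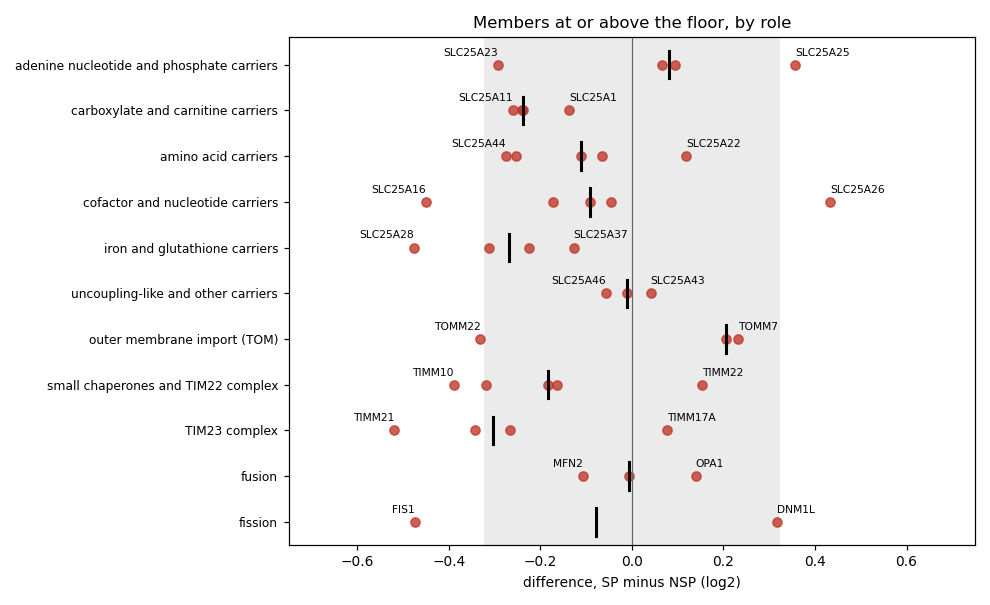
Difference, SP minus NSP (log2, horizontal axis), of the 42 genes reaching the floor, with a point per gene and a black bar at the median of each role; the grey band spans differences under the call size of 0.322. Carboxylate and carnitine carriers and iron and glutathione carriers lie wholly left of 0, with medians of -0.24 and -0.27, whereas FIS1 and DNM1L lie on opposite sides. Of all genes reaching the floor, 59.6% were lower in SP.

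Carriers of iron and glutathione were lower in SP for all 4 genes measured, with a median of -0.27. Of all genes reaching the floor 59.6% were lower in SP, with a median of -0.05. SLC25A28 (mitoferrin-2), which brings iron into the matrix in most tissues, had 8.27 in SP and 8.74 in NSP (-0.48, 1.39-fold lower). Its paralogue SLC25A37 (mitoferrin-1), best known from erythroid cells, had 9.09 in SP and 9.22 in NSP (-0.13). Both probe sets of SLC25A37 were lower in SP, with differences of -0.09 and -0.16. The glutathione carrier SLC25A39 had 10.67 in SP and 10.89 in NSP (-0.22), and its paralogue SLC25A40 had 7.97 in SP and 8.29 in NSP (-0.31). Among the 4, SLC25A28 alone passed the call size.

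The carboxylate and carnitine carriers were also lower in SP for all 4 genes, and within a narrow range from -0.26 to -0.14. The share of all genes reaching the floor that were lower was 59.6%. SLC25A11, the oxoglutarate carrier of the malate-aspartate shuttle, had 10.18 in SP and 10.44 in NSP (-0.26). SLC25A10, the dicarboxylate carrier, had 8.49 in SP and 8.73 in NSP (-0.24). SLC25A20, which moves acylcarnitines in for fatty acid oxidation, had 7.51 in SP and 7.75 in NSP (-0.24). None reached the call size. The citrate carrier SLC25A1, which feeds cytosolic lipid synthesis, was closest to 0, with 10.38 in SP and 10.51 in NSP (-0.14).

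Cofactor carriers held the extremes of the SLC25 family reaching the floor, apart from SLC25A28. SLC25A26 imports the methyl donor S-adenosylmethionine. It had 8.83 in SP and 8.39 in NSP, a difference of 0.43 (1.35-fold higher), the largest upward difference of a member reaching the floor. SLC25A16, tied to coenzyme A supply of the matrix, had 7.70 in SP and 8.15 in NSP (-0.45, 1.37-fold lower). Its probe sets gave -0.50 and -0.41, so they shared the direction. SLC25A42, a coenzyme A carrier, had 7.64 in SP and 7.81 in NSP (-0.17). The peroxisomal cofactor carrier SLC25A17 (-0.09) and the pyrimidine nucleotide carrier SLC25A36 (-0.05) differed little. The median of the 5 was -0.09.

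Carriers of adenine nucleotides were the only group of SLC25 genes reaching the floor with a positive median in the deposited scaling, 0.08 over 4 genes. Without the trend on signal it was 0.16, and the group of other carriers then also had a positive median (0.03). SLC25A25, a calcium-regulated ATP-Mg/phosphate carrier, had 8.77 in SP and 8.41 in NSP (0.36, 1.28-fold higher). Its paralogue SLC25A23 had 9.08 in SP and 9.38 in NSP (-0.29, 1.23-fold lower), while SLC25A24 had 8.88 in SP and 8.81 in NSP (0.07). The calcium-regulated paralogues therefore differed in sign. SLC25A4, an ADP/ATP carrier of muscle and heart, had 10.71 in SP and 10.61 in NSP (0.09). SLC25A41, a related ATP-Mg/phosphate carrier, had 6.76 in SP and 6.33 in NSP (0.43), and the testis ADP/ATP carrier SLC25A31 had 4.25 in SP and 4.37 in NSP, all under the floor. The ADP/ATP carriers SLC25A5 and SLC25A6 and the phosphate carrier SLC25A3 had no single-symbol probe set and were not analysed here. A pseudogene of the last, SLC25A3P1, met the naming rule, with 6.81 in SP and 6.68 in NSP, and can share probe signal with its parent.

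Amino acid carriers had a median of -0.11 over the 5 genes reaching the floor, and none reached the call size. SLC25A44, which imports branched-chain amino acids, had 8.23 in SP and 8.51 in NSP (-0.28). SLC25A29, a carrier of basic amino acids, had 8.84 in SP and 9.09 in NSP (-0.25). The aspartate/glutamate carriers of the malate-aspartate shuttle, SLC25A13 (9.34 in SP and 9.46 in NSP) and SLC25A12 (8.63 in SP and 8.69 in NSP), were nearer to 0. The glutamate carrier SLC25A22 had the opposite sign, with 8.99 in SP and 8.87 in NSP (0.12). Its paralogue SLC25A18 and the ornithine carrier SLC25A2 were under the floor, with differences of 0.13 and -0.10.

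The other carriers differed least. SLC25A46, an outer membrane protein linked to fission and to lipid transfer, had 9.61 in SP and 9.66 in NSP (-0.06), which turned to 0.03 after the trend on signal was removed. SLC25A43 (0.04) and SLC25A34 (-0.01) were the further members reaching the floor. SLC25A14, SLC25A45, SLC25A47 and SLC25A48 lay under it, with differences from 0.07 to 0.21.

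**Figure D3:**
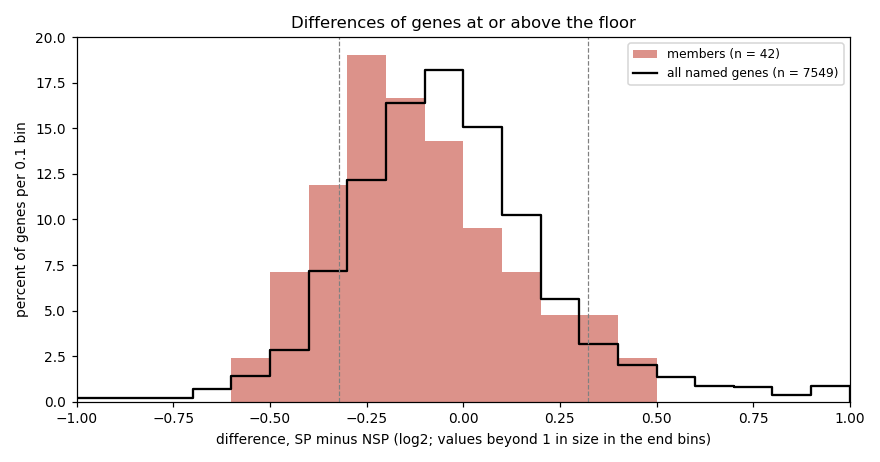
Percent of genes (vertical axis) in bins of the SP minus NSP difference (log2, horizontal axis), for the 42 members reaching the floor (red bars) and all 7549 such genes (black line); dashed lines mark the call size of 0.322 either way. The members sit slightly to the left, with a median of -0.13 against -0.05, and none lies beyond -0.52 or 0.43.

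Other mitochondrial gene families, set beside the members at the same floor, lay further below 0. Oxidative phosphorylation genes had a median difference of -0.22 over 63 genes, and 57 of them were lower (90.5%). Mitochondrial ribosomal protein genes had one of -0.19 over 57 genes, with 51 lower (89.5%), against 59.6% of all genes reaching the floor. At the call size 12 oxidative phosphorylation genes (19%) and 10 mitochondrial ribosomal protein genes (17.5%) were lower in SP, against 10.7% of all genes, and none in either family was higher. Without the trend on signal 8 and 7 were lower and 0 and 1 higher, against 6.85% lower and 10.8% higher of all genes. Solute carrier genes outside SLC25 had a median of -0.12 over 127 genes, close to the -0.13 of the 25 SLC25A genes. Without the trend on signal the medians were -0.14 for oxidative phosphorylation genes, -0.13 for mitochondrial ribosomal protein genes, -0.05 for the other solute carriers and -0.05 for the members. The difference between these families was not tested, because the design has no replicate.

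Probe sets annotated with several symbols, at least 1 of which meets the naming rule, were kept out of the gene values, since their signal cannot be given to a single gene. Of 22 such probe sets 17 had a lower value in SP and 4 a higher one, against 52.7% and 46.1% of all 2408 probe sets with several symbols, and their median difference was -0.13. At the call size 4 were lower and 1 higher, against 12% and 8.14%. Among the 13 that reached the floor 12 had a lower SP value, against 60.9% of all such probe sets, with a median of -0.19.

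Genes that work with the members were followed in 5 lists chosen by function, here again reaching the floor. Among 16 import partners the median was -0.06, and it was 0.02 without the trend on signal. PMPCA, a subunit of the peptidase that removes presequences, alone passed the call size, with 9.14 in SP and 9.65 in NSP (-0.51, 1.43-fold lower). The quality control protease LONP1 had 9.33 in SP and 9.65 in NSP (-0.32), the outer membrane insertase MTCH2 10.29 in SP and 10.57 in NSP (-0.28), and the motor exchange factor GRPEL1 9.93 in SP and 10.21 in NSP (-0.28). Among 23 dynamics partners 18 (78.3%) had a lower value in SP, against 59.6% of all genes, and the median was -0.11. Without the trend on signal it was 15 (65.2%), against 49.3%. The rhomboid protease PARL had 9.09 in SP and 9.42 in NSP (-0.33, 1.26-fold lower), and alone passed the call size. It did not pass after quantile normalisation or without the trend on signal. In the latter scaling 0 genes of the list were lower by that size and 1 was higher, against 6.85% and 10.8% of all genes. The inner membrane protease SPG7 differed by -0.27 and the dynamin DNM2 by -0.24. The transport adaptor TRAK2 differed by 0.26.

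The lists of cristae and mitophagy genes and of other mitochondrial transport also had medians below 0. Of 13 cristae and mitophagy genes, 4 were lower by the call size (10.7% of all genes were) and none higher, with a median of -0.17. The count was 3 after centring or quantile normalisation and 1 without the trend on signal. Of all genes 9.64%, 8.46% and 6.85% were lower by that size in these scalings, in that order. PINK1, the kinase that marks damaged mitochondria, had 7.20 in SP and 7.59 in NSP (-0.38). Its SP value lay under the floor, so it was counted among the 4 only through its NSP value. The receptors NBR1 (-0.37), FUNDC1 (-0.36) and FKBP8 (-0.33) differed by similar amounts, whereas the mitophagy receptor BNIP3L was at 0.14 and the cristae scaffold gene IMMT at 0.02. The other cristae genes reaching the floor were APOO (-0.11), APOOL (0.05), CHCHD3 (0.06) and CHCHD6 (0.12). None of the 4 genes lower by the call size was a cristae gene. Among 16 other transport genes the median was -0.10. TSPO, an outer membrane cholesterol-binding protein, had 9.09 in SP and 9.47 in NSP (-0.38, 1.30-fold lower), and alone passed the call size. It did not pass without the trend on signal. There 0 of these transport genes were lower by that size and 1 was higher, against 6.85% and 10.8% of all genes. The serine carrier SFXN1 had 9.92 in SP and 9.64 in NSP (0.29). SFXN3 (-0.27) and UCP2 (-0.26), an SLC25 family carrier that the naming rule left out, were lower in SP.

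Regulators of mitochondrial biogenesis included the largest upward differences of these lists. Of 10 reaching the floor, 4 were higher in SP by the call size and none was lower, against 8.57% and 10.7% of all genes. The count of 4 was the same in each scaling, where 8.57% to 10.8% of all genes were higher. It includes NRF1, which reached the floor only through its SP value. The median of the list was 0.09, and it was 0.00 without the floor or with the floor required on both arrays. PPARGC1A, the coactivator PGC-1alpha that drives transcription of nuclear genes for mitochondrial proteins, had 10.73 in SP and 9.64 in NSP (1.09, 2.12-fold higher). Its relative PPARGC1B had 8.50 in SP and 8.05 in NSP (0.45, 1.37-fold higher). The transcription factor gene NRF1 had 7.76 in SP and 7.42 in NSP (0.33), its NSP value lying under the floor. MYC, which is also in this list, had 11.16 in SP and 10.31 in NSP (0.85, 1.80-fold higher). TFAM, which packages mitochondrial DNA and helps start its transcription, was lower in SP, with 9.07 in SP and 9.30 in NSP (-0.23). A higher coactivator signal stood beside carrier and import genes that were mostly lower or near 0. Of all genes reaching the floor 59.6% were lower in SP, with a median of -0.05. A link between coactivator and member signals was not tested.

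**Figure D4:**
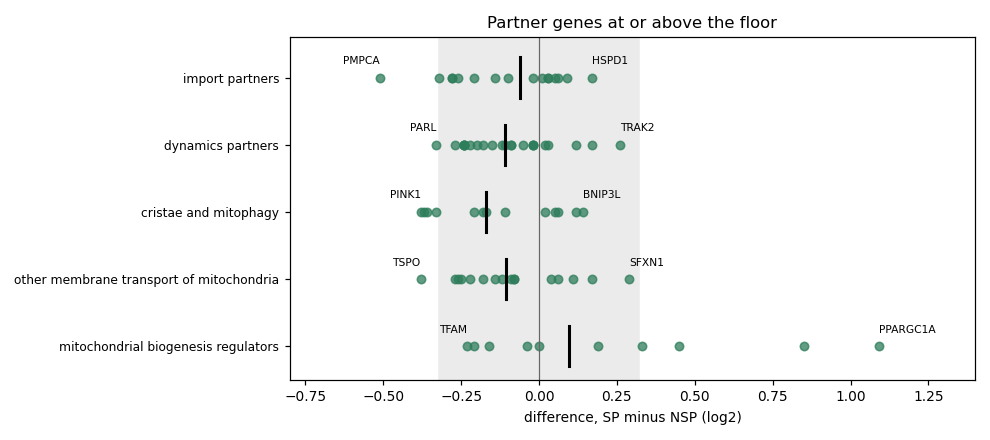
Difference, SP minus NSP (log2, horizontal axis), of partner genes reaching the floor in 5 functional lists, with a point per gene and a black bar at the list median; the grey band spans differences under the call size of 0.322. PPARGC1A (1.09) is the furthest point right, PMPCA (-0.51) the furthest left, and the list medians run from -0.17 to 0.09.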

How the data were processed

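Gene expression of the side population of J82 and of the remaining cells was measured on 1 exon array each. The authors deposited log2 values, made with RMA and Partek per the submitters' processing notes. RMA corrects background, equalises the arrays and summarises probes, which compresses differences of dim probe sets. Versions, genome build and filters were not given in the sources used here, and no intensities or detection calls were used, so precision is limited by the number of arrays. Of 22011 probe sets, 14432 had 1 symbol, 2408 several and 5171 none. Only the first kind named genes. Entrez identifiers gave the current RefSeq symbol (GRCh38.p14) for 14404 of these, and probe sets of a gene were averaged.

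Differences are SP minus NSP. No test was run, because each population has 1 array. Counts at a difference of 0.322 (log2) or more in size, over genes reaching the floor, stand beside those of all named genes. That size was chosen because differences of these genes in earlier results were small. The members, roles and lists were chosen by name or function, with earlier results of these data known. Named genes were all members past that size, the fusion and fission genes and the extremes of each role. Up to 4 genes per list with the largest differences were also named. Further members are given so that families are described whole. IMMT, BNIP3L, TFAM, APOO, APOOL, CHCHD3 and CHCHD6 were named after their values were seen. The counting was tested on simulated data. Alternatives covered floor, scaling, probe set choice, symbols, fold threshold and summary, and the scalings were also applied to counts of member subsets, lists and comparison families, as alternatives added after seeing the data. Protein sequences were not used here. Python 3.11.15, numpy 2.4.6, pandas 2.3.3, statsmodels 0.14.6 (lowess, span 0.3) and matplotlib 3.10.9 were used.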

Additional observations from a re-analysis of the deposited data

How the results depend on the processing

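No paired analysis was possible because each population has 1 array. The fold threshold had most effect: at 1.5-fold 0 members were lower and 0 higher in SP, and at a difference of 0.20 (log2) 17 were lower and 5 higher, against 7 and 2 at 0.322; all genes at 0.20 gave 24.7% lower and 15% higher. A value was taken as moved when it shifted by 0.1 or more (log2) or a count changed by over 1.5 times. The median over members ran from -0.23 (TIMM and TOMM genes alone) to -0.05 (trend on signal removed) and stayed below 0 in every alternative run. Of 24 named members, 22 kept their sign under centring, quantile normalisation and removal of the trend on signal, with MFN1 and SLC25A46 the exceptions. The other alternatives say little about sign. A floor does not enter the difference of a gene, and the probe set choice matters only for genes with several probe sets. The platform symbols left these differences as they were. The outer membrane import median moved to 0.07 with the floor at the 25th percentile. Signal over background could not be computed from this table.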
